A study of Mus musculus with 11 samples.

Results

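Myf5, Myod1, Myog and Myf6, the 4 factors of the MyoD family, and Mef2a, Mef2c and Mef2d, 3 factors of the Mef2 family, were followed in sorted muscle cells of mice at 3 postnatal ages. Every probe set that carried 1 of these symbols and no other was taken, which gave 19 of the 45037 probe sets tested, for 7 of 18193 genes. Myf5, Myog and Myf6 had 1 probe set each, Myod1 had 2, Mef2d had 3, Mef2c had 5 and Mef2a had 6. The probe sets of 1 gene read the same gene and are not independent measurements of it.

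All cells came from Pax3GFP/+ mice on a C57BL/6J background and were selected for their green fluorescent protein (GFP) by flow sorting, with dead cells excluded by propidium iodide. GFP is made from the Pax3 locus, a gene of muscle progenitors, so every group carried this allele and the sort took any cell with GFP. The P1 arrays (postnatal day 1, n = 4) and the P12 arrays (day 12, n = 4) were from trunk muscle, described as holding proliferating satellite cells, the stem cells of muscle. The P28 arrays (day 28, n = 3) were from abdominal, pectoral and intercostal muscle with satellite cells, with no word on proliferation. Arrays of the same age are labelled as biological replicates, but the labels give neither the number of animals behind an array nor their sex, so p-values measure the spread between these arrays.

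MyoD family factors are basic helix-loop-helix (bHLH) proteins that turn on muscle genes by binding E-boxes, short CANNTG motifs, as dimers with E proteins. Myf5 and Myod1 mark committed satellite cells and myoblasts, Myog drives differentiation and Myf6 (MRF4) is known from late differentiation and from the fibre. Mef2 proteins bind an A/T-rich motif, act together with the MyoD family on muscle promoters, and are held in check by class IIa histone deacetylases; Mef2c is also made in endothelial cells and in several blood cell types.

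The Myog promoter is shown because Myog was the member that passed the test between P1 and P12, that of Mef2c because all probe sets of Mef2c rose by P28, and that of Myf5 as a member that passed in no comparison. Each run is the 250 bases before the start of transcription, 5′ to 3′ on the gene's own strand, from RefSeq (GRCm38.p6), with capitals for CANNTG and for CTANNNNTA, a loose form of the Mef2 motif, searched on both strands.
Myog, chr1:134289754-134290003, plus strand: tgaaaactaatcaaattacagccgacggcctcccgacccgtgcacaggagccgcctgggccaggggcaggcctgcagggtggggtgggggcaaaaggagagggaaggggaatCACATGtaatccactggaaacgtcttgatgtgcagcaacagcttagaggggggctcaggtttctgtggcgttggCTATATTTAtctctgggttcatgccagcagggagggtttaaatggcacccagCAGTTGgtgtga
Mef2c, outermost start, chr13:83503784-83504033, plus strand: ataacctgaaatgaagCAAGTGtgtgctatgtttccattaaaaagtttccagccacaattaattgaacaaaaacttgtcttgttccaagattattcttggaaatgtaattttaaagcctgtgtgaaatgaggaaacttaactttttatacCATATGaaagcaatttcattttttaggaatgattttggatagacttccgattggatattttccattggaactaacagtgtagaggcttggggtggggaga
Myf5, chr10:107486135-107486384, minus strand: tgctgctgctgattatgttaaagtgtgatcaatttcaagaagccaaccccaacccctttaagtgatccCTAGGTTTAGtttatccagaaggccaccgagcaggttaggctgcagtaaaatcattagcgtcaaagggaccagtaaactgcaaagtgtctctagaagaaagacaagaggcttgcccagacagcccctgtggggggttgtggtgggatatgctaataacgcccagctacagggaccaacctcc
The Myog run held CACATG and CAGTTG, which begin 138 and 12 bases before the start, and CTATATTTA at 64 bases. The outermost Mef2c run held CAAGTG at 234 bases and CATATG at 100 bases, and no CTANNNNTA. Other Mef2c starts differed: the run at chr13:83573357-83573606 held CAGATG at 245 bases and CTAACGATA at 191 bases. The run at chr13:83523406-83523655 held neither motif. The Myf5 run held no CANNTG and 1 stretch that matches CTANNNNTA on each strand, as CTAGGTTTA and the overlapping TAGGTTTAG. Of 32851 mouse promoters of the same length, 66.2% held CANNTG at least once and 31.8% at least 2 times, and 19.0% held CTANNNNTA at least once. Binding was not measured here, so these matches describe the letters and do not say which of them are bound. RefSeq promoters were matched for 5 of the 7 genes; Myod1 and Myf6 are named without one. Myf5 and Myf6 are neighbours in the RefSeq gene table.

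Values are log2 RMA levels, and a change is a log2 difference between ages ± SE from limma, so a change of 1 is a doubling of signal. The words rose and fell are used at a Benjamini-Hochberg adjusted p under 0.05 over all 45037 probe sets. The 3 comparisons share arrays and are not independent of each other. In bulk samples, fewer cells of a type and less RNA per cell cannot be told apart. Age, the muscles sampled and the suffix of the internal sample names coincide for P28, and the lowest value on an array was 1.65 to 2.09 at P28 against -0.79 to 0.48 at the other ages, so age, muscle and processing cannot be told apart there. The log2 difference between the 3′ and 5′ Gapdh controls, which grows as 5′ ends are lost from the RNA, was 0.79 to 0.99 at P28 and 1.32 to 3.05 at the other ages. Replicates 1 and 2 of both earlier ages (array set 1) had a larger difference than replicates 3 and 4 (array set 2). The satellite cell gene Pax7 was at 10.75 ± 0.33 (SD, n = 4), 10.78 ± 0.23 (SD, n = 4) and 10.72 ± 0.18 (SD, n = 3), and none of the 10 satellite cell markers was near background at any age. Of their 20 probe sets 3 rose from P1 to P12 and 7 from P12 to P28, where 3.25% and 13.5% of all did so.

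Between P1 and P12 Myog rose, and the other members did not pass. Between P12 and P28 Myf6 and 3 of the 5 Mef2c probe sets rose, and 2 of the 6 Mef2a probe sets fell. Against P1, the P28 arrays were higher in Myf6, in all 5 Mef2c probe sets and in 1 of 3 Mef2d probe sets, and lower in 1 Mef2a and 1 Mef2d probe set. Myf5 and Myod1 passed in no comparison.

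The counts of members called are set here beside those of all probe sets. From P1 to P12, 1 of 19 rose and 0 fell, where 3.25% of all 45037 probe sets rose and 1.59% fell by limma's moderated test. At an unadjusted p under 0.05, 2 member probe sets were higher and 0 lower at P12. From P12 to P28, 4 rose (21.1%) and 2 fell (10.5%), where 13.5% of all rose and 15.9% fell. From P1 to P28, 7 rose (36.8%) and 2 fell (10.5%), where 17.6% rose and 17.4% fell, and 5 of these 7 belonged to Mef2c alone. After quantile normalization the split was 5 that rose and 4 that fell from P12 to P28, and 6 and 4 from P1 to P28. Of all probe sets 13.8% then rose and 16.8% fell from P12 to P28, and 16.1% and 19.4% from P1 to P28. After median centring the split of the members was 5 and 1 from P12 to P28, and 8 and 2 from P1 to P28. The shares of all probe sets were then 14.3% and 15.2% from P12 to P28, and 19.3% and 15.6% from P1 to P28. The F test for any difference among the ages was passed by 8 of 19, from 5 genes, where 36.3% of all probe sets passed. Every P28 array lay above all P1 and P12 arrays in 5 of 19 member probe sets, where 11.7% of all did so, and below them in 2, where 13.9% did. The median change of the members was 0.03, 0.12 and 0.38 in the 3 comparisons, against 0.01, -0.05 and -0.05 for all probe sets. The count from P1 to P28 was 5 without P28 replicate 2 or 3, the F count was 5 without P28 replicate 2, and the count from P1 to P12 was 0 when P12 replicate 1 or 4 or, at P1, replicate 3 or 4 was left out.

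**Figure D1:**
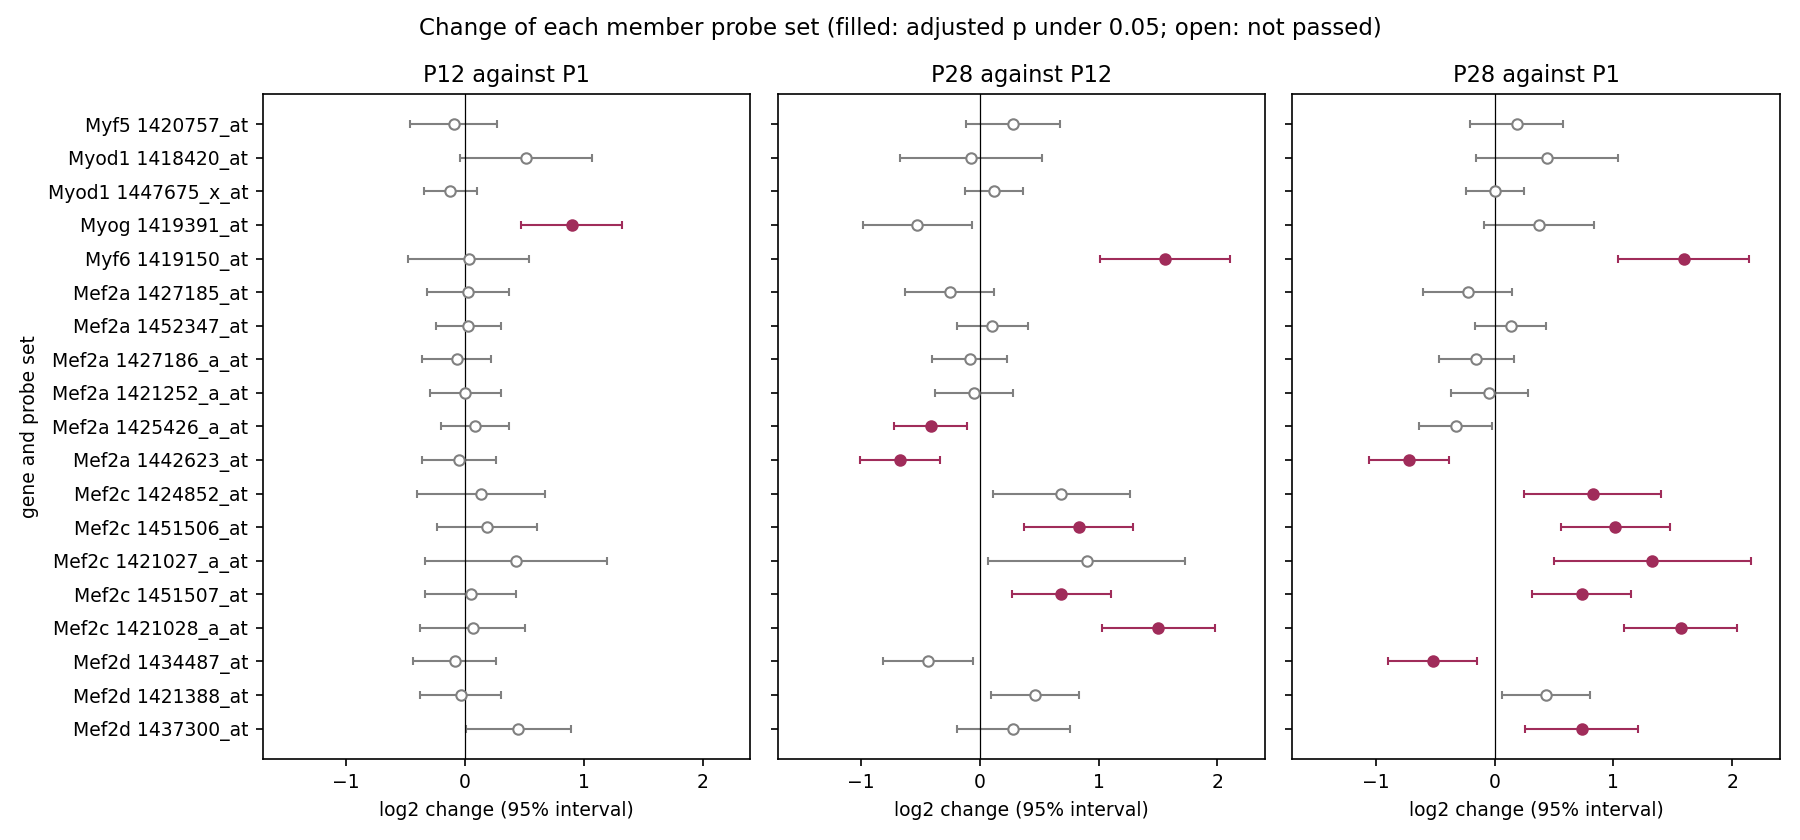
Log2 change of each of the 19 member probe sets (horizontal axis, point with 95% interval) in the 3 comparisons (panels), a row per gene and probe set (vertical axis). Filled points passed at an adjusted p under 0.05: 1 in P12 against P1, 6 in P28 against P12 and 9 in P28 against P1.

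**Figure D2:**
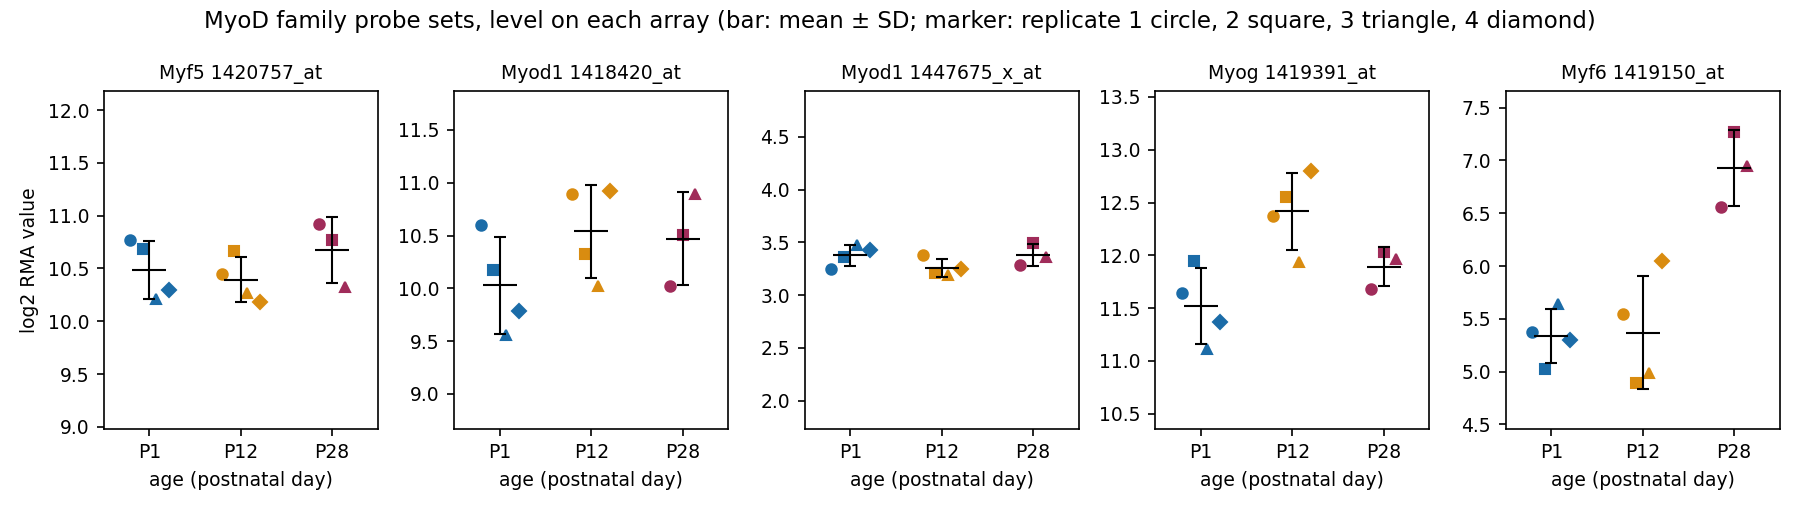
Level of each MyoD family probe set (vertical axis, log2 RMA value) on each array at P1, P12 and P28 (horizontal axis); points are arrays, bars the mean ± SD, and every panel spans the same log2 range. Myog was highest at P12 (11.94 to 12.80), and the 3 P28 arrays of Myf6 (6.56 to 7.27) lay above all P1 and P12 arrays.

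Myf5, a factor of committed satellite cells, passed in no comparison (1420757_at). It read 10.77, 10.68, 10.21 and 10.29 at P1, 10.45, 10.67, 10.26 and 10.19 at P12, and 10.92, 10.77 and 10.33 at P28. The ages overlapped throughout, and at P1 and P12 array set 1 read above array set 2. The change was -0.09 ± 0.17 from P1 to P12 (95% interval -0.46 to 0.27) and 0.28 ± 0.18 from P12 to P28 (-0.11 to 0.67), with adjusted p of 0.841 and 0.279. From P1 to P28 it was 0.19 ± 0.18 (adjusted p = 0.465). With the Gapdh 3′ to 5′ difference as a covariate, Myf5 passed in P28 against P12 (0.66, adjusted p = 0.0219) and against P1 (0.59, adjusted p = 0.0346), although that difference itself separates P28 from the other ages.

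Myod1, the factor of activated myoblasts, was spread widely within each age (1418420_at). It read 10.60, 10.17, 9.56 and 9.78 at P1, 10.89, 10.33, 10.02 and 10.92 at P12, and 10.02, 10.50 and 10.89 at P28. The P12 and P28 arrays covered nearly the same range, and the 2 lowest arrays were both from P1. The change was 0.51 ± 0.26 from P1 to P12 (95% interval -0.04 to 1.07, adjusted p = 0.312), -0.07 ± 0.28 from P12 to P28 (-0.67 to 0.53, adjusted p = 0.881) and 0.44 ± 0.28 from P1 to P28 (-0.15 to 1.04, adjusted p = 0.240). The intervals against P1 reach a doubling of signal, so these arrays do not show that Myod1 was level. Its second probe set (1447675_x_at) read 3.19 to 3.50 on all arrays, where the bacterial Trp controls, which have no target in mouse RNA, averaged 3.36 to 3.64, so it was not above background.

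Myog, the factor of differentiating myocytes, rose by a log2 value of 0.90 ± 0.20 from P1 to P12 (1419391_at, 1.86-fold, adjusted p = 0.0206). It read 11.65, 11.94, 11.11 and 11.37 at P1, 12.37, 12.56, 11.94 and 12.80 at P12, and 11.68, 12.03 and 11.97 at P28. All but 1 of the 4 P12 arrays were above every other array, while P12 replicate 3 and P1 replicate 2 met at 11.94. From P12 to P28 the difference was -0.52 ± 0.21 (95% interval -0.98 to -0.06, adjusted p = 0.0832), and from P1 to P28 it was 0.38 ± 0.21 (adjusted p = 0.195). P12 was therefore highest in the order of the means, and P28 differed from neither neighbour beyond the threshold.

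The Myog rise was 0.67 within array set 1 (adjusted p = 0.174) and 1.13 within array set 2 (adjusted p = 0.0401), and with array set as a block its adjusted p was 0.0112. It lost its call without P1 replicate 3 (0.76, adjusted p = 0.0674), P1 replicate 4 (0.85, adjusted p = 0.0678), P12 replicate 1 (0.91, adjusted p = 0.0520) or P12 replicate 4 (0.77, adjusted p = 0.0666). The difference between P12 and P28 passed after quantile normalization (-0.51, adjusted p = 0.0210) and without P12 replicate 3 (-0.68, adjusted p = 0.0246). Proliferation markers were also highest at P12: 4 of their 8 probe sets rose from P1 to P12 and 7 of 8 fell from P12 to P28, and their mean was 9.22 to 10.08 at P1, 10.41 to 11.06 at P12 and 8.97 to 9.83 at P28. Of the mature fibre probe sets 9 of 21 rose from P1 to P12 and 0 fell, with 0 lower at an unadjusted p under 0.05, and among the P1 and P12 arrays their mean was highest in P12 replicate 4, as was Myog. Over all probe sets 3.25% rose from P1 to P12 and 15.9% fell from P12 to P28. The part of either list in the Myog values was not tested.

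Myf6, the factor of late differentiation and of fibres, rose 2.95-fold from P12 to P28 (1419150_at, log2 change 1.56 ± 0.26, adjusted p = 0.000481) and 3.01-fold from P1 to P28 (1.59 ± 0.26, adjusted p = 0.000296). It read 5.38, 5.02, 5.64 and 5.30 at P1, 5.55, 4.89, 4.99 and 6.05 at P12, and 6.56, 7.27 and 6.95 at P28. The P28 arrays did not overlap with the others, and P12 replicate 4 was the highest of the earlier arrays. P1 and P12 were close together, with a change of 0.03 ± 0.24 (95% interval -0.48 to 0.54, adjusted p = 0.967). Both increases passed in all 20 alternatives run for each, with values from 1.25 to 1.78 against P12 and from 1.26 to 1.78 against P1.

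**Figure D3:**
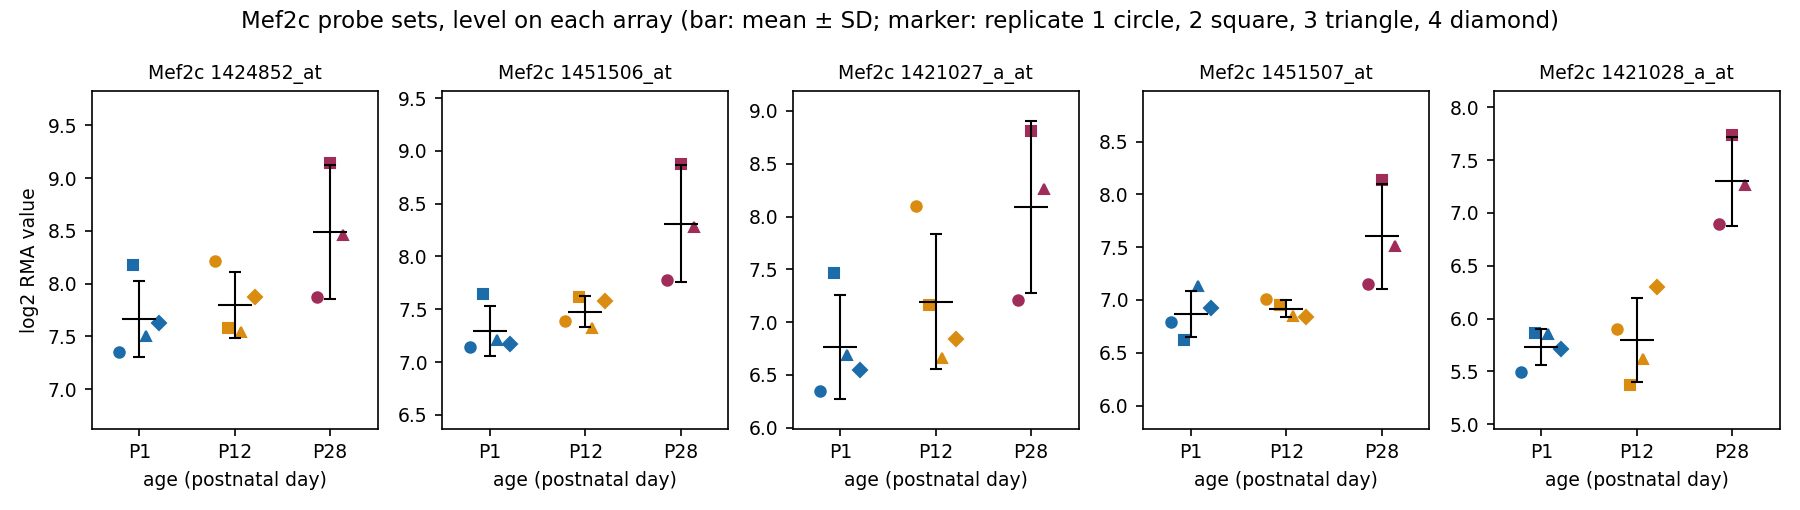
Level of the 5 Mef2c probe sets (vertical axis, log2 RMA value) on each array at P1, P12 and P28 (horizontal axis); points are arrays, bars the mean ± SD, and every panel spans the same log2 range. In each panel P28 replicate 1 was the lowest and replicate 2 the highest of the P28 arrays, and in 3 of the 5 panels the P28 arrays lay above all others, as in 11.7% of all probe sets.

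Mef2c, a Mef2 factor needed for muscle differentiation and sarcomere genes, rose from P1 to P28 in all 5 of its probe sets, by 0.74 to 1.57. The clearest was 1421028_a_at, which read 5.50, 5.86, 5.85 and 5.72 at P1, 5.90, 5.37, 5.62 and 6.30 at P12, and 6.89, 7.74 and 7.27 at P28. The 3 P28 arrays lay above the other 8, and P12 replicate 4 was again the highest of the earlier arrays. This probe set rose by 1.57 ± 0.22 against P1 (2.96-fold, adjusted p = 0.000103) and by 1.50 ± 0.22 against P12 (2.83-fold, adjusted p = 0.000205).

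The second probe set without overlap, 1451506_at, read 7.15, 7.64, 7.21 and 7.17 at P1, 7.39, 7.62, 7.32 and 7.58 at P12, and 7.78, 8.88 and 8.28 at P28. It rose by 1.02 ± 0.21 against P1 (adjusted p = 0.00206) and by 0.83 ± 0.21 against P12 (adjusted p = 0.00926). The third, 1451507_at, was at 6.62 to 7.13 at P1, 6.84 to 7.01 at P12 and 7.15 to 8.14 at P28, and rose by 0.74 ± 0.19 (adjusted p = 0.00906) and 0.69 ± 0.19 (adjusted p = 0.0162). These probe sets thus moved by less than 1421028_a_at while keeping the same order of the P28 arrays.

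The other Mef2c probe sets overlapped between ages. 1421027_a_at was at 6.35 to 7.47 at P1, 6.66 to 8.10 at P12 and 7.21 to 8.81 at P28; it rose by 1.33 ± 0.39 against P1 (adjusted p = 0.0156), and the difference from P12 was 0.90 ± 0.39 (adjusted p = 0.0964). 1424852_at was at 7.36 to 8.17, 7.55 to 8.22 and 7.87 to 9.14; it rose by 0.82 ± 0.27 against P1 (adjusted p = 0.0284), and the difference from P12 was 0.69 ± 0.27 (adjusted p = 0.0704). In both, P12 replicate 1 lay within the P28 range. From P1 to P12 the 5 probe sets differed by 0.05 to 0.43, and none passed.

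Single arrays moved the values of 3 Mef2c probe sets in both directions. Without P28 replicate 2, the change of Mef2c 1424852_at against P1 was 0.50 (adjusted p = 0.155), that of 1421027_a_at against P1 was 0.97 (adjusted p = 0.0836) and that of 1451507_at against P12 was 0.42 (adjusted p = 0.0867). Mef2c 1421027_a_at also lost its call without P28 replicate 3 (1.25, adjusted p = 0.0504). The call of 1424852_at against P1 was lost in 7 of 20 alternatives: besides P28 replicate 2, these were those without P1 replicate 1, 3 or 4 or P28 replicate 3 (0.72 to 0.84, adjusted p of 0.0577 to 0.0678), quantile normalization (0.65, adjusted p = 0.0725) and the Gapdh 3′ to 5′ difference as a covariate (0.97, adjusted p = 0.0698). With that covariate 1451507_at passed neither against P12 (0.63, adjusted p = 0.110) nor against P1 (0.67, adjusted p = 0.0819). The Gapdh difference itself separates P28 from the other ages.

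Mef2c also gained calls against P12. Without P28 replicate 1, the difference was 1.34 for 1421027_a_at (adjusted p = 0.0166) and 0.999 for 1424852_at (adjusted p = 0.0123), and without P12 replicate 1 it was 1.20 (adjusted p = 0.0268) and 0.83 (adjusted p = 0.0477). Mef2c 1424852_at passed as well when dim probe sets were left out (0.69, adjusted p = 0.0451). The calls of 1421028_a_at and 1451506_at remained in both comparisons in all 19 alternatives run for each.

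Markers of other cells rose at P28 together with Myf6 and Mef2c. Of 21 probe sets of 14 mature fibre genes, such as Ckm and the myosin heavy chain Myh4, 18 rose from P12 to P28 and 0 fell, with 0 lower at an unadjusted p under 0.05. The mean of that list was 7.24 to 7.55 at P1, 7.92 to 8.82 at P12 and 10.72 to 11.25 at P28, and its log2 summed level was 12.03 to 12.33, 12.31 to 13.10 and 15.10 to 15.66. It was highest in P28 replicate 2 and, among the earlier arrays, in P12 replicate 4, the arrays in which Myf6 and Mef2c 1421028_a_at were also highest. The other Mef2c probe sets had another highest array among the earlier ones. It was P12 replicate 1 for 1424852_at and 1421027_a_at, P1 replicate 2 for 1451506_at and P1 replicate 3 for 1451507_at. Myh4 was near background at P1 and at no other age. From P12 to P28, 13.5% of all probe sets rose and 15.9% fell, shares that also stand beside the marker counts below.

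Endothelial markers followed a similar course, with 8 of 12 probe sets that rose and 0 that fell from P12 to P28, with 0 lower at an unadjusted p under 0.05. Their mean was 5.76 to 6.53 at P1, 6.09 to 6.78 at P12 and 7.79 to 8.57 at P28, highest in P28 replicate 2, and their log2 summed level was 9.09 to 9.90, 9.51 to 10.08 and 11.04 to 11.77. None of the 8 endothelial genes was near background at any age.

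Of the blood cell probe sets 7 of 12 rose and 1 fell from P12 to P28, with a log2 summed level of 9.996 to 10.57, 9.77 to 9.99 and 11.38 to 12.19; Itgam was near background at P12. Of those of fibro-adipogenic and tendon cells 10 of 16 rose and 1 fell (12.51 to 13.15, 12.32 to 13.20 and 13.61 to 14.16), and of those of smooth muscle and pericytes 6 of 12 rose and 1 fell (12.40 to 13.04, 12.71 to 13.34 and 13.29 to 13.44). Of 2 erythroid probe sets 1 rose, and of 5 of embryonic and perinatal fibre genes 4 fell. Schwann cell and melanocyte markers had 0 of 10 probe sets called by limma's test from P12 to P28, with 2 at an unadjusted p under 0.05. The part of fibre, endothelial and blood cell RNA in the Myf6 and Mef2c values was not tested.

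**Figure D4:**
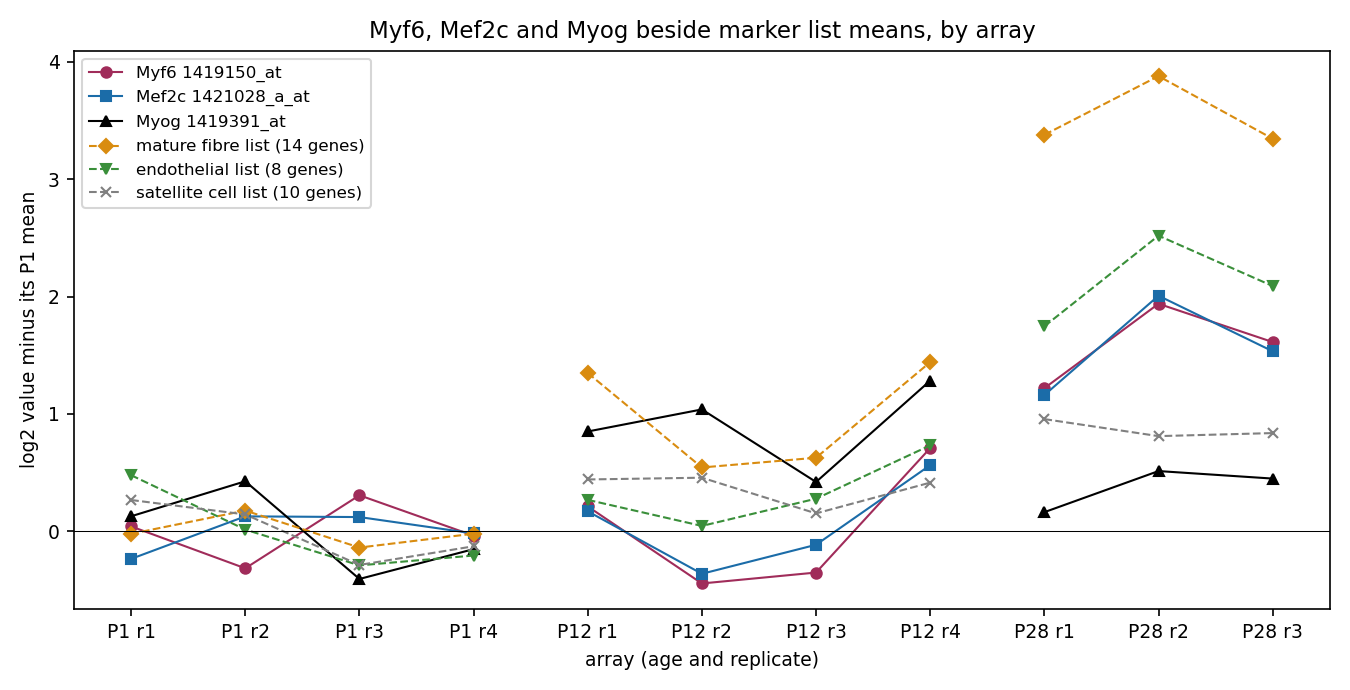
Log2 value of Myf6, Mef2c (1421028_a_at) and Myog, and the mean of 3 marker lists, minus its own P1 mean (vertical axis) on each of the 11 arrays (horizontal axis, age and replicate). On the 3 P28 arrays Myf6, this Mef2c probe set and the fibre and endothelial lists were all above their P1 and P12 values, with replicate 2 highest, whereas Myog was highest at P12. The mean of the satellite cell list was also higher at P28 (10.47 to 10.62) than at P1 (9.38 to 9.93) and P12 (9.82 to 10.12).

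Mef2d, a broadly expressed Mef2 factor, gave probe sets that moved in opposite directions. 1434487_at, its brightest, read 9.60, 9.53, 9.10 and 9.27 at P1, 9.31, 9.74, 9.06 and 9.05 at P12, and 8.74, 8.96 and 8.86 at P28. All P28 arrays were below all others, and it fell by 0.52 ± 0.18 on the log2 scale against P1 (adjusted p = 0.0333), while the difference from P12 was -0.44 ± 0.18 (adjusted p = 0.0800).

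Mef2d 1437300_at read 7.92, 8.03, 7.10 and 7.49 at P1, 8.16, 8.36, 7.83 and 7.998 at P12, and 7.97, 8.58 and 8.58 at P28. The 2 lowest arrays were P1 replicates 3 and 4, and P28 replicate 1 lay within the P1 range. It rose by 0.73 ± 0.22 against P1 (adjusted p = 0.0198), with a difference of 0.45 ± 0.21 from P1 to P12 (adjusted p = 0.259). 1421388_at was at 8.08 to 8.64 at P1, 7.96 to 8.52 at P12 and 8.66 to 8.92 at P28, without overlap, and its differences of 0.47 ± 0.17 and 0.43 ± 0.17 did not pass (adjusted p = 0.0562 and 0.0669).

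Within each array the distance between Mef2d 1437300_at and 1434487_at shrank with age, a comparison chosen after the values were seen and therefore given without a test. At P1 their difference was -1.74 ± 0.21 (SD, n = 4), on the P12 arrays -1.20 ± 0.14 (SD, n = 4) and by P28 -0.48 ± 0.26 (SD, n = 3), and the ages did not overlap. For 1421388_at minus 1434487_at it was -1.02 ± 0.09 (SD, n = 4), -0.97 ± 0.23 (SD, n = 4) and -0.07 ± 0.03 (SD, n = 3). A single direction for Mef2d can therefore not be given from these arrays.

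The Mef2d calls depended on the measure of RNA 3′ bias and on single arrays. With the Gapdh 3′ to 5′ difference as a covariate, the fall of 1434487_at against P1 shrank to -0.09 (adjusted p = 0.732). In that fit 1421388_at passed with 0.84 against P12 (adjusted p = 0.00327) and 0.82 against P1 (adjusted p = 0.00321). The Gapdh difference itself separates P28 from the other ages, so this fit cannot tell 3′ bias from age. The fall of 1434487_at also lost its call without P1 replicate 1 or 2 or without any 1 of the P28 arrays (highest adjusted p = 0.106), and the rise of 1437300_at without P1 replicate 3 or 4 or P28 replicate 2 or 3 (highest adjusted p = 0.0795).

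**Figure D5:**
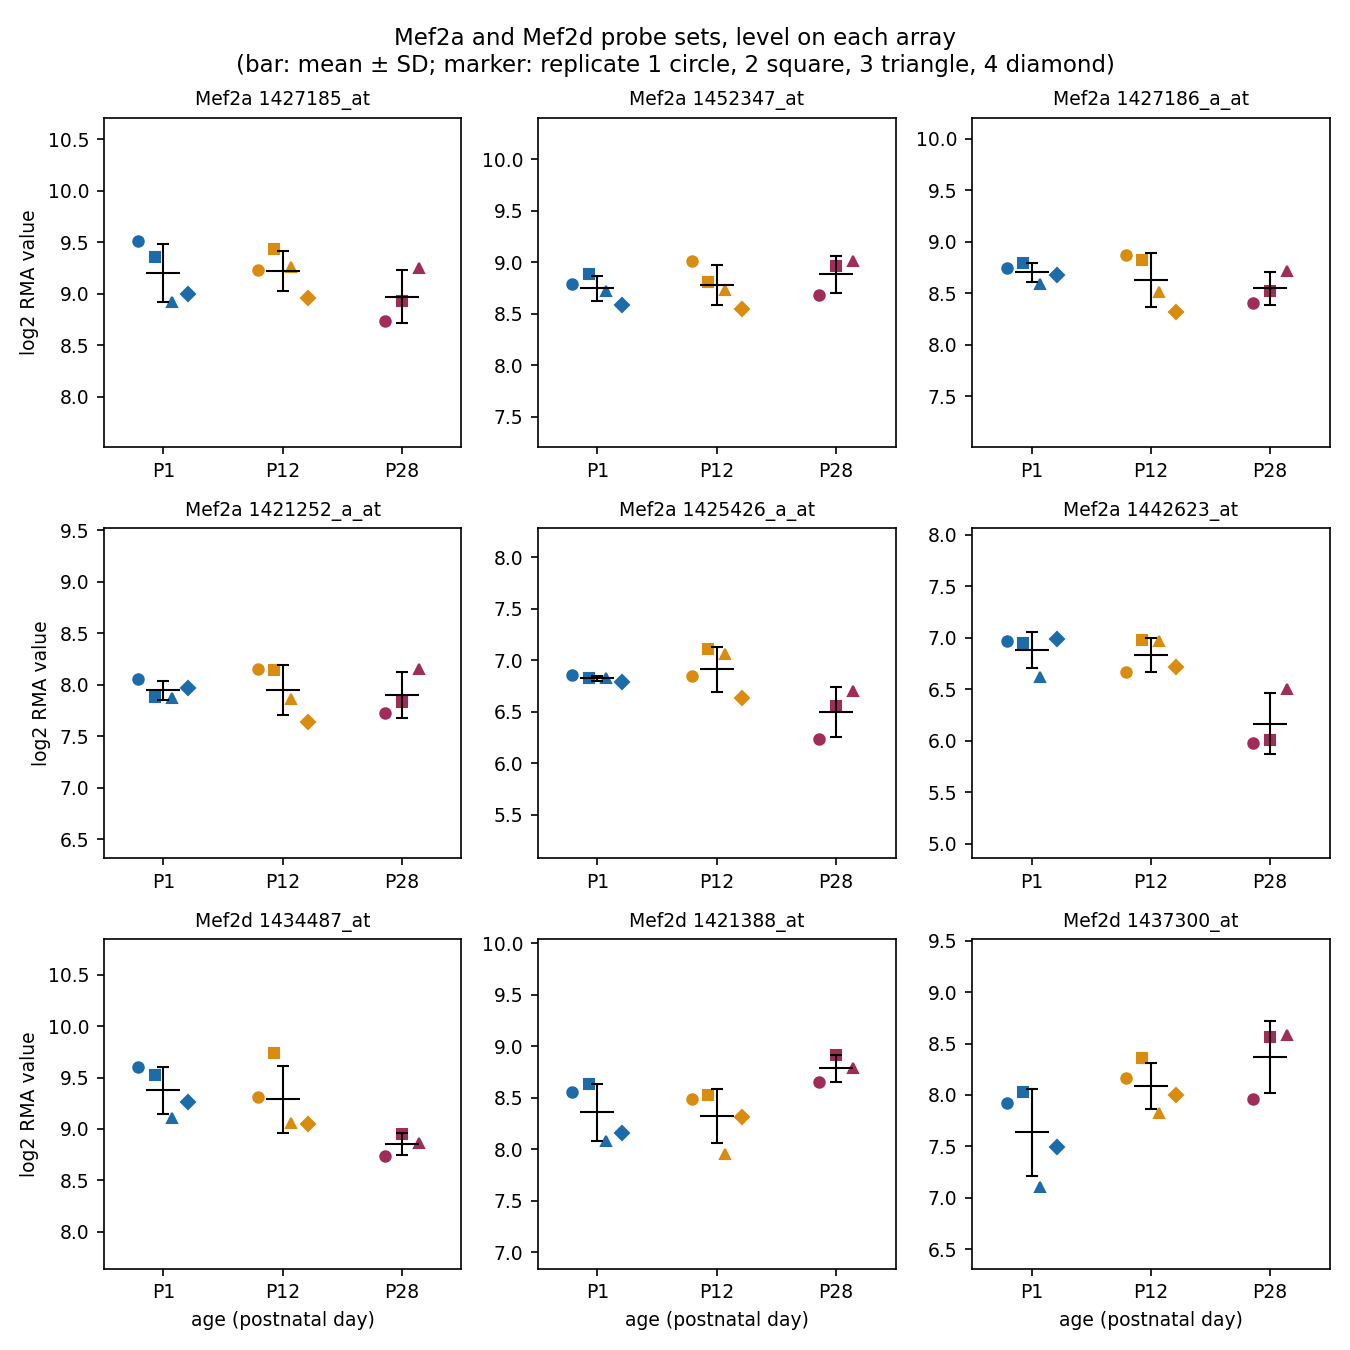
Level of the 6 Mef2a and 3 Mef2d probe sets (vertical axis, log2 RMA value) on each array at P1, P12 and P28 (horizontal axis); points are arrays, bars the mean ± SD, and every panel spans the same log2 range. Mef2a 1442623_at was at 5.98 to 6.51 at P28 and at 6.62 to 6.98 before, Mef2d 1434487_at at 8.74 to 8.96 at P28 and at 9.05 to 9.74 before, and Mef2d 1421388_at, which did not pass, at 8.66 to 8.92 and at 7.96 to 8.64.

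Mef2a, the Mef2 factor found in most tissues and in adult muscle, passed in 2 of its 6 probe sets. The more stable of them, 1442623_at, read 6.97, 6.95, 6.62 and 6.98 at P1, 6.67, 6.97, 6.97 and 6.72 at P12, and 5.98, 6.00 and 6.51 at P28. All P28 arrays were below all others, and it fell by 0.67 ± 0.16 on the log2 scale against P12 (adjusted p = 0.00552) and by 0.72 ± 0.16 against P1 (adjusted p = 0.00277), calls that remained in all 19 alternatives. 1425426_a_at was at 6.79 to 6.86, 6.64 to 7.11 and 6.23 to 6.71, and fell by 0.41 ± 0.14 against P12 (adjusted p = 0.0447), a call that was lost in 14 of 19 alternatives.

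The other 4 Mef2a probe sets passed in no comparison. The brightest, 1427185_at, was at 8.92 to 9.51 at P1, 8.96 to 9.43 at P12 and 8.73 to 9.25 at P28, with a difference of -0.23 ± 0.17 between P28 and P1 (95% interval -0.60 to 0.15, adjusted p = 0.343). For 1452347_at, 1427186_a_at and 1421252_a_at that difference was 0.14 ± 0.14, -0.15 ± 0.15 and -0.04 ± 0.15. These data do not say which transcripts each probe set reads.

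Partners and inhibitors of the MyoD family moved at P28. The E proteins Tcf3, Tcf4 and Tcf12, with which MyoD factors dimerise, had 14 probe sets, of which 5 fell from P12 to P28 and 4 fell from P1 to P28, with medians of -0.41 and -0.22 against -0.05 for all probe sets. Over all probe sets 15.9% fell from P12 to P28 and 17.4% from P1 to P28. None of the E protein probe sets passed limma's test from P1 to P12 (0 of 14, with 1 at an unadjusted p under 0.05). By its brightest probe set, Tcf12 fell by 0.74 ± 0.14 on the log2 scale from P12 to P28 (adjusted p = 0.00128). Those of Tcf4 (-0.45 ± 0.18, adjusted p = 0.079) and Tcf3 (-0.16 ± 0.13, adjusted p = 0.414) did not pass there. From P1 to P28 Tcf12 fell by 0.55 ± 0.14 (adjusted p = 0.00708) and Tcf4 by 0.55 ± 0.18 (adjusted p = 0.0303). Tcf3 differed by less than its error between P1 and P28 (-0.02 ± 0.13, adjusted p = 0.928). The count of 5 was 2 to 3 without P12 replicate 1 or 2 or P28 replicate 1 or 2.

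Some antagonists of bHLH factors, a list with the Id proteins that bind E proteins without binding DNA, were higher at P28. Of 29 probe sets of 17 genes, 9 rose and 0 fell from P12 to P28, and 13 rose and 0 fell from P1 to P28 by limma's test (medians 0.23 and 0.51). At an unadjusted p under 0.05, 2 were lower in each. By the brightest probe set of each of the 17 genes, 6 rose from P12 and 7 from P1 (medians 0.29 and 0.23). Over all probe sets 3.25% rose from P1 to P12, 13.5% from P12 to P28 and 17.6% from P1 to P28. Markers of other cell types also rose at P28, and their part in these values was not tested. From P1 to P28 Id1 rose by 2.26 ± 0.28 (adjusted p = 3.82e-05), Id3 by 2.12 ± 0.21 (adjusted p = 5.09e-06) and Bhlhe40, a repressor of the same fold, by 2.04 ± 0.20 (adjusted p = 4.67e-06). From P1 to P12 1 probe set rose, 2 did so with the replicate number as a block, 6 and 5 did so without P1 replicate 1 and without P12 replicate 3, and 2 without P28 replicate 1 or 3.

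Of the 39 probe sets of 17 Mef2 repressors and cofactors, 4 rose and 10 fell from P12 to P28 (median -0.10). From P1 to P28, 5 rose and 10 fell (median -0.15). Of all probe sets 13.5% rose and 15.9% fell from P12 to P28, and 17.6% and 17.4% from P1 to P28. Leaving out 1 array at a time gave 3 to 6 that rose in both comparisons, and 7 to 12 and 6 to 11 that fell. No difference from all probe sets is read from these counts. Hdac4 and Hdac9, class IIa deacetylases that repress Mef2, rose from P1 to P28 by 0.62 ± 0.14 (adjusted p = 0.00419) and 0.56 ± 0.19 (adjusted p = 0.0325), with Hdac9 at a low level at all ages (4.11 to 4.75 as group means). Vgll2, a muscle cofactor of the Tead and Mef2 factors, fell by 1.08 ± 0.17 on the log2 scale from P12 to P28 (adjusted p = 0.000406), and Tead4 fell by 0.86 ± 0.18 (adjusted p = 0.00230). The count of 10 that fell from P1 to P28 was 6 without P1 replicate 1 or 2, and that of 5 that rose was 3 without P1 replicate 1 or P28 replicate 2. From P1 to P12 1 probe set rose, that of Tead1 (0.49 ± 0.13, adjusted p = 0.0468), and it lost its call with the replicate number as a block and without any of the 11 arrays.

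Of 14 genes upstream of the MyoD family 12 had a probe set of their own. Of those 25 probe sets 4 rose and 10 fell from P12 to P28 (median -0.29), where 13.5% of all rose and 15.9% fell. From P1 to P28, 5 rose and 7 fell (median -0.14), where 17.6% of all rose and 17.4% fell. From P12 to P28 Eya4, a cofactor in myogenic transcription, fell by 1.10 ± 0.20 on the log2 scale (adjusted p = 0.000977). Lbx1, of migrating limb progenitors, fell by 0.69 ± 0.22 (adjusted p = 0.0309). Meox2, a homeobox factor of somite and limb muscle, rose by 1.38 ± 0.21 (adjusted p = 0.000251). Six4, which acts on the Myog promoter, rose by 1.10 ± 0.21 from P1 to P12 (adjusted p = 0.0109). In that comparison 3 upstream probe sets rose and 0 fell by limma's test, with 3 lower at an unadjusted p under 0.05, and this count became 1 when P12 replicate 1 or 2 or, at P1, replicate 2, 3 or 4 was left out. Of the brightest probe sets, Pax3 (8.29, 8.60 and 8.48 as group means) and Pax7 did not pass in any comparison. With the Gapdh 3′ to 5′ difference as a covariate, fewer probe sets of these lists fell from P12 to P28 and from P1 to P28. They were 3 and 1 of the E proteins, 4 and 3 of the Mef2 repressors and cofactors, and 5 and 4 of the upstream genes. Over all probe sets the shares that fell also went down, from 15.9% and 17.4% to 8.33% and 9.69%. The Gapdh difference itself separates P28 from the other ages.

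Known targets of the MyoD family moved in both directions. Over all probe sets 3.25% rose and 1.59% fell from P1 to P12, and 13.5% and 15.9% from P12 to P28. From P1 to P28 these shares were 17.6% and 17.4%. Between P1 and P12, where Myog rose, 4 of 41 probe sets rose and 2 fell; the muscle fusion protein Mymk rose by 1.33 ± 0.20 (adjusted p = 0.00192), the acetylcholine receptor subunit Chrna1 by 1.33 ± 0.15 (adjusted p = 0.00039) and the Notch ligand Dll1 by 0.91 ± 0.21 (adjusted p = 0.0258), while the cardiac troponin Tnnt2 fell by 1.00 ± 0.19 on the log2 scale (adjusted p = 0.00901). The count of 4 was 8 when P1 replicate 1 was left out, and 2 when P1 replicate 3 or 4 or, at P12, replicate 1 or 4 was. From P12 to P28, 12 rose and 5 fell (median 0.09), and from P1 to P28, 18 rose and 7 fell (median 0.38); 11 fell after quantile normalization. From P12 to P28 Ckm, the muscle creatine kinase, rose by 3.96 ± 0.34 (adjusted p = 2.32e-06) and skeletal actin Acta1 by 2.21 ± 0.27 (adjusted p = 4.82e-05). In the same comparison the fusion peptide Mymx fell by 1.35 ± 0.23 (adjusted p = 0.000688) and the fetal receptor subunit Chrng by 0.81 ± 0.17 (adjusted p = 0.00232). Ckm is also 1 of the mature fibre markers.

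Some targets of Mef2 rose at P28. Of 27 probe sets of 14 genes, 12 rose and 0 fell from P12 to P28 (median 0.47). From P1 to P28, 12 rose and 1 fell (median 0.16), or 0 fell without P28 replicate 1. At an unadjusted p under 0.05, 1 was lower at P28 than at P12. Over all probe sets 3.25% rose and 1.59% fell from P1 to P12, and 13.5% and 15.9% from P12 to P28. From P1 to P28 these shares were 17.6% and 17.4%. Myoz1, a Z-disc protein, rose by 3.82 ± 0.28 (adjusted p = 6.24e-07), Smpx by 3.28 ± 0.31 (adjusted p = 5.74e-06) and muscle phosphoglycerate mutase Pgam2 by 3.07 ± 0.34 (adjusted p = 2.04e-05) from P12 to P28. These genes are fibre genes as well, and their rise ran beside that of the fibre markers. From P1 to P12, 0 rose and 3 fell by limma's test, with 2 higher at an unadjusted p under 0.05, and among those that fell was Myoz2 (-1.10 ± 0.24, adjusted p = 0.0214). The count of 3 was 1 without P1 replicate 2, 3 or 4, and 1 probe set rose with the replicate number as a block.

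For Myog and Myf6, the members whose brightest probe set passed the F test, the genes with the nearest course over the 11 arrays were found among 10828 genes, by the root mean square difference of log2 values after each gene was centred on its own mean. Nearest to Myog were Acta2, smooth muscle actin (0.17), Tmsb10, thymosin beta 10 (0.19), and Sh3glb1, endophilin B1 (0.20). Acta2 was at 12.20, 12.88 and 12.57 as group means at P1, P12 and P28. Nearest to Myf6 were Coq10a (0.22), of coenzyme Q handling, Pgm1, a phosphoglucomutase (0.22), and Nrap, an actin-anchoring protein of muscle (0.22). Nrap was at 6.23, 6.19 and 7.41, and Coq10a at 6.95, 6.88 and 8.61. Both were picked for their likeness to Myf6, so their highest mean at P28 follows from that choice.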

How the data were processed

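Expression was measured on 11 Affymetrix arrays, grouped by the age in their titles. The authors deposited log2 values per probe set; RMA, affy and Affymetrix Expression Console are the tools in the submitters' processing notes, with no version or role. Of 45101 probe sets, 64 manufacturer controls were left out, and of the rest 34945 carried 1 gene symbol in the supplied annotation, 932 several and 9160 none; 0 columns were left unmapped. Arrays give no read depth, and their number limits the precision.

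With limma 3.58.1 in R 4.3.3, group means of all 11 arrays were fitted over 45037 probe sets without a filter (lmFit, eBayes, 8 residual and 5.82 prior degrees of freedom). Tests were two-sided, with Benjamini-Hochberg adjustment over all probe sets and a moderated F test for any difference. The code was tested on simulated data. The members and lists were chosen with earlier results of these data known. Named from each list are up to 3 genes per direction and comparison with the largest change of the gene's brightest probe set among those that passed, plus the E proteins, Pax3 and Pax7. Near background means at or below the highest Trp control of that age. A nearest course was sought among genes with a mean of at least 6 at some age.

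The alternatives were median centring, quantile normalization, the brightest probe set of each gene, leaving out probe sets under 5, eBayes with its trend and robust options, array weights, a fit of the ages compared, the replicate number as a block, a 3′ bias covariate, array sets at P1 and P12, and leaving out each array. Deviations from the group mean of arrays with the same replicate number correlated by 0.143 to 0.311 between P1 and P12 (4 pairs, different numbers -0.286 to 0.247). The main fit took no pairs, and the numbers, from the titles, entered only in the alternative with the replicate number as a block. Different numbers within an array set correlated by 0.140 to 0.247, so pairs and array sets cannot be told apart. That block also took in the P28 arrays, although their numbers showed no clear pairing (0.021 to 0.093 with P1 and -0.122 to 0.027 with P12, 3 pairs each).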

Additional observations from a re-analysis of the deposited data

Results flagged for a closer look

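In 38 groups of 4 arrays (19 probe sets at P1 and at P12) the highest and the lowest array were checked for a gap to the nearest other array above Dixon's 95% critical value for 4 samples, a gap which chance gives in about 1 in 20 groups. The gap was that large in 2 groups. Mef2a 1442623_at was at 6.62 in P1 replicate 3, below the other P1 arrays (6.95 to 6.98). Mef2c 1451506_at was at 7.64 in P1 replicate 2, above the other P1 arrays (7.15 to 7.21).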

How the results depend on the processing

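Of 1158 values of the members under alternative settings, 0 changed sign with a call and 1093 stayed on the same side of the threshold. Of 16 calls, 8 held in every alternative run: Myf6, Mef2c 1451506_at, Mef2c 1421028_a_at and Mef2a 1442623_at, each against P12 and against P1. Another 8 were lost in at least 1, and 11 comparisons without a call gained one. From P1 to P12, the 1 member probe set called became 2 with array set as a block, by Mef2d 1437300_at (0.45, adjusted p = 0.0496), and 0 within array set 1. Leaving out 1 array at a time gave 0 to 1 from P1 to P12, 4 to 7 from P12 to P28, 5 to 10 from P1 to P28 and 5 to 9 in the F test.

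With the replicate number as a block, 1 member probe set was called from P1 to P12, 8 from P12 to P28 and 9 from P1 to P28. Of all probe sets 3.63% then rose and 1.7% fell from P1 to P12, and 13.9% and 16.5% from P12 to P28. From P1 to P28 these shares were 18% and 18%. The calls this block added were Mef2d 1421388_at (0.43, adjusted p = 0.0472) and Mef2d 1434487_at (-0.49, adjusted p = 0.0293) from P12 to P28. The block changed no other call of a member. Among the MyoD targets the block moved the count that fell from P12 to P28 from 5 to 8. For P28 no such pairing was borne out.

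The P28 arrays cannot be told apart from their muscles and a possible batch. The 3 P28 arrays limit precision, and Myod1 1447675_x_at was not measured above background.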
